A study of Mus musculus with 10 samples.

Results

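The simple epithelial keratins Krt7, Krt8, Krt18 and Krt19 were followed through 8 mRNA-sequencing libraries of mouse embryonic stem (ES) cells. These 4 genes were taken by symbol, matched to their Ensembl identifiers, and all 4 were found among the 22713 genes of both tables of normalized read counts. The study asked how Pontin, a chromatin-remodelling ATPase encoded by Ruvbl1, works with the pluripotency factor Oct4 and with the long non-coding RNA linc1253 in ES cells. Pontinf/f; CreER ES cells, in which hydroxytamoxifen (OHT) activates Cre and deletes the floxed Pontin alleles, gave 1 library each without OHT (WT) and on day 3 (OHT 3D) and day 4 (OHT 4D) of OHT. ZHBTc4 ES cells, another line, in which tetracycline (Tc) shuts off Oct4, gave 1 library 2 days after Tc (Tc 2D). ZHBTc4 cells infected for 4 days with lentivirus gave 2 libraries with a control short hairpin RNA (shRNA control) and 2 with an shRNA against linc1253 (linc1253 knockdown). No OHT-treated cells without the floxed alleles and no untreated ZHBTc4 mRNA library were analysed here, so that a response to the drug and a response to the depletion cannot be told apart. The methods allow culture with or without fibroblast feeders and do not say which was used for each library.

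Keratins build the intermediate filaments of epithelial cells. Each filament is made of pairs in which a type II keratin (here Krt8 and Krt7) joins a type I keratin (here Krt18 and Krt19), and a keratin without a partner is degraded. Krt8 and Krt18 are the keratins of simple, single-layered epithelia and among the earliest of the embryo, where they appear in the trophectoderm. Krt7 and Krt19 are also keratins of simple epithelia, ducts among them. In culture, ES cells that lose Oct4 turn towards trophectoderm.

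On NCBIM37, the build of the deposited files, 3 of the genes lie on chromosome 15. Krt7 (ENSMUSG00000023039) spans chr15:101241474-101260744 on the plus strand. Krt8 (ENSMUSG00000049382) spans chr15:101827142-101834773 on the minus strand, and Krt18 (ENSMUSG00000023043) spans chr15:101858647-101862457 on the plus strand. Krt8 and Krt18 are therefore transcribed away from each other, with annotated 5′ ends 23874 bases apart. Krt19 (ENSMUSG00000020911) is on chromosome 11, chr11:100002124-100009979, on the minus strand, within the type I keratin cluster. All are protein-coding genes.

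The promoters of the 3 genes on chromosome 15 are shown because Krt8 and Krt18 had the most alike responses of these keratins, and because Pontin ChIP-sequencing reads were counted around their annotated 5′ ends (for Krt7, the main window lies upstream of the stretch shown). Each stretch holds 250 bases before and 30 bases after the RefSeq start (sequences from RefSeq, GRCm38.p6), and was found as an exact match in NCBIM37, at chr15:101242584-101242863 for Krt7 on the plus strand, chr15:101834744-101835023 for Krt8 on the minus strand and chr15:101858397-101858676 for Krt18 on the plus strand. Capitals mark matches on either strand to 6 motifs, the TATA box (TATAAA), the GC box (GGGCGG), the CCAAT box (CCAAT), an AP-1 site (TGANTCA), an AP-2 site (GCCNNNGGC) and the octamer that Oct4 binds (ATGCAAAT).
Krt8: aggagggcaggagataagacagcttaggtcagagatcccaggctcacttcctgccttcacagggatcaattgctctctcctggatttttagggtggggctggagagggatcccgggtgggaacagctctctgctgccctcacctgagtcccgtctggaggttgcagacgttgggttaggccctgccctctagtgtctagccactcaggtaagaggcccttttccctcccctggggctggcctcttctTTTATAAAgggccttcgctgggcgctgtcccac
Krt18: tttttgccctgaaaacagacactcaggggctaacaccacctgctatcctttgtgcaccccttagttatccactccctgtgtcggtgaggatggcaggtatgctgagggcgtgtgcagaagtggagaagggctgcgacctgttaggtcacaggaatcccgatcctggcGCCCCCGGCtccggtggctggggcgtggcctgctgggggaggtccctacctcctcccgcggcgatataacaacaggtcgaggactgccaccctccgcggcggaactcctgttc
Krt7: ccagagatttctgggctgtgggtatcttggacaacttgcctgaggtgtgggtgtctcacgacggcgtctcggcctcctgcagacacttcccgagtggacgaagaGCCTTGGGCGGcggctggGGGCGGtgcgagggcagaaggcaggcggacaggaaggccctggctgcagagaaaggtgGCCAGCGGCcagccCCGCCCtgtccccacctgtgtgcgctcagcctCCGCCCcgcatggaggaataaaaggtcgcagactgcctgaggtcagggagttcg

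The 3 promoters held different letters. In Krt8 the capitals are a TATA box that spans the annotated start and reads on both strands, a motif found in 13.1% of 32817 RefSeq promoters of the same length. In Krt18 they are an AP-2 site 83 bases before the start, a motif found in 15.4% of promoters. Krt7 held 2 AP-2 sites, at 146 and 70 bases before the start, and 4 GC boxes, a motif found in 34.7% of promoters, and the first AP-2 site overlaps a GC box. None of the 3 stretches matched the CCAAT box, the AP-1 site or the octamer, which 36.1%, 7.47% and 1.69% of promoters hold. These matches describe letters in this window and not binding.

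The sequenced depth was 17187595 to 18120429 reads on genes in the WT, OHT and Tc libraries and 21245831 to 37951742 in the shRNA libraries. Ruvbl1 checked the Pontin labels, with 198 CPM (read counts scaled to library size, with TMM correction) in WT, 33.3 in OHT 3D and 50.9 in OHT 4D. It was also lower in the Tc 2D library, with 85 CPM. Pou5f1, which encodes Oct4, had 301 CPM in WT, 296 in OHT 3D, 347 in OHT 4D and 21.1 in Tc 2D. Summed CPM of 15 ES cell markers was 4605 to 4845 in WT and the OHT libraries and 868 in Tc 2D, and 7158 to 7886 in the shRNA libraries. linc1253 itself was not analysed here.

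Krt8, the type II keratin of simple epithelia, had 19.8 CPM in WT, 65.1 in OHT 3D, 155 in OHT 4D and 133 in Tc 2D. In ZHBTc4 cells infected with lentivirus it had 22.2 and 25.2 CPM in the shRNA control libraries and 18.4 and 19.7 CPM after linc1253 knockdown. The 3 depleted libraries thus stood above every other library, and the 5 others lay between 18.4 and 25.2 CPM. Krt18, its type I partner, had 17.7 CPM in WT, 44.2 in OHT 3D, 110 in OHT 4D and 157 in Tc 2D. Its shRNA control libraries had 16.5 and 18.8 CPM and its linc1253 knockdown libraries 13.4 and 15.3 CPM. Krt18 again was highest in the 3 depleted libraries, and unlike Krt8 it was higher at Tc 2D than at OHT 4D.

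Krt7, a type II keratin of ducts and other simple epithelia, had 5.90 CPM in WT, 8.69 in OHT 3D, 19.8 in OHT 4D and 29.6 in Tc 2D. The shRNA control libraries gave 1.85 and 1.68 CPM and the linc1253 knockdown libraries 1.42 and 1.93 CPM, which overlap. Krt7 was the member whose level differed most between WT and the shRNA control libraries, with WT at 3.35-fold their mean, on scales set separately by the authors. These libraries differ in line, lentiviral infection and sequencer model, which cannot be told apart. Krt19, a small type I keratin that lacks most of the usual tail domain, had 7.11 CPM in WT, 7.24 in OHT 3D, 29.4 in OHT 4D and 10.9 in Tc 2D. Its shRNA control libraries had 6.09 and 6.49 CPM and its linc1253 knockdown libraries 2.91 and 4.21 CPM. Krt19 was thus highest in the OHT 4D library, with the Tc 2D library next.

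**Figure D1:**
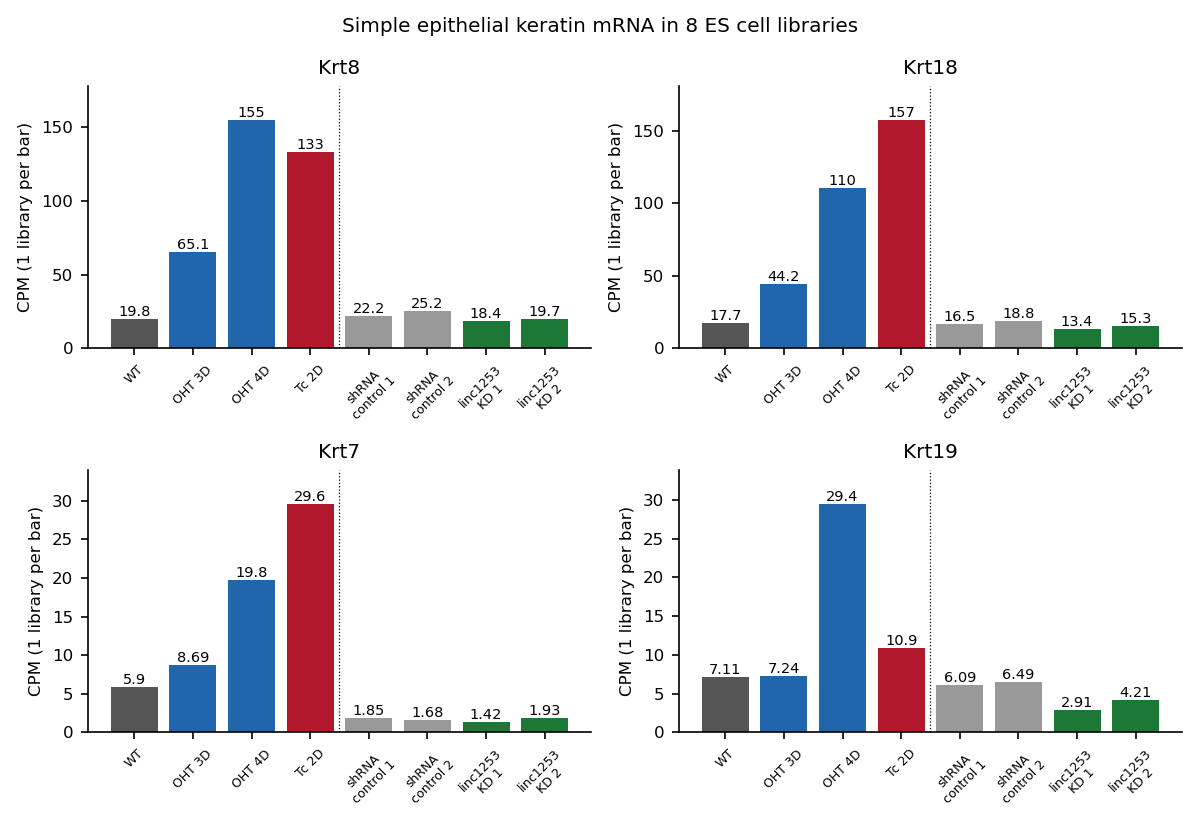
CPM of Krt8, Krt18, Krt7 and Krt19 (y axis, linear from 0, a scale of its own per gene) in each of the 8 mRNA libraries (x axis), with 1 bar per library and the value above it; the dotted line separates the 2 tables that were normalized separately, and KD is knockdown. Krt8 and Krt18 are at 44.2 CPM or more in the 3 depleted libraries and at 25.2 CPM or less in the others. Krt19 is highest at OHT 4D, with Tc 2D next.

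Pontin depletion was compared with WT at each time. Log2-fold-changes were taken on CPM plus 1, and a gene was called past an absolute value of 0.58, with 1 library a side and therefore no p. At OHT 3D, 2 of the 4 keratins rose, where 6.01% of 13449 expressed genes rose and 5.88% fell. Krt8 rose 3.28-fold (log2-fold-change 1.67), with a 95% exact (Clopper-Pearson) interval of 2.95 to 3.66 that covers the counting of reads only. Krt18 rose 2.5-fold (log2-fold-change 1.27, interval 2.22 to 2.81). Krt7 was 1.47-fold (interval 1.17 to 1.85) and was not called, and Krt19 was 1.02-fold (interval 0.813 to 1.28). The pair that makes the Krt8 and Krt18 filament thus rose at the earlier time, when Krt19 differed by less than counting error.

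At OHT 4D all 4 keratins rose, where 6.48% of genes rose and 8.89% fell. Krt8 rose 7.80-fold (log2-fold-change 2.90, interval 7.06 to 8.62) and Krt18 rose 6.22-fold (log2-fold-change 2.57, interval 5.6 to 6.94). They had the 20th and 31st highest log2-fold-changes of the 13449 genes. Krt19 rose 4.14-fold (log2-fold-change 1.91, interval 3.48 to 4.95) and Krt7 rose 3.35-fold (log2-fold-change 1.59, interval 2.75 to 4.10), at ranks 75 and 120. Taken between the OHT libraries, all 4 rose from OHT 3D to OHT 4D, where 5.47% of genes rose and 8.84% fell. This step was 4.07-fold for Krt19, 2.49-fold for Krt18, 2.37-fold for Krt8 and 2.27-fold for Krt7, and the interval of Krt19 (3.42 to 4.86) lay above those of the other members. In bulk RNA, fewer cells that express a gene and less RNA per cell cannot be told apart, and the same holds for a rise.

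The fold values can be set beside the spread of libraries of 1 condition. Between the 2 shRNA control libraries, the 4 keratins differed by at most 0.18 on the log2 scale of CPM plus 1, and 3.1% of expressed genes differed past 0.58. Between the linc1253 knockdown libraries, Krt19 differed by 0.41, Krt7 by 0.28 and the other members by at most 0.17, and 2.6% of genes differed past 0.58. WT, OHT 3D, OHT 4D and Tc 2D had no replicate libraries.

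Oct4 depletion was compared with the same WT library, as in the study, so that the line and the depletion change together, and the Oct4 and Pontin comparisons share their control. At Tc 2D, 3 of the 4 keratins rose, where 23.9% of genes rose and 25.8% fell. Krt18 rose 8.88-fold (log2-fold-change 3.08, interval 8.01 to 9.86), Krt8 rose 6.72-fold (log2-fold-change 2.69, interval 6.09 to 7.43) and Krt7 rose 5.01-fold (log2-fold-change 2.15, interval 4.17 to 6.07). Krt19 was 1.54-fold (interval 1.27 to 1.87), with a log2-fold-change of 0.56 just under the threshold. It passed the threshold with a pseudocount of 0.5 (0.59) and with median-ratio scaling (0.60). Krt8 and Krt18 were the members called in all 3 comparisons with WT, where 1.65% of genes rose in all 3.

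Tc 2D was also set against the mean of the 2 shRNA control libraries, of the same ZHBTc4 line but infected and in the other table. Per the paper, they were also run on another sequencer model. All 4 keratins were past the threshold, where 17.9% of 13887 genes rose and 30.1% fell. These shares, here and for the gene lists below, are on scales set separately for the 2 tables. On 1 median-ratio scale all 4 keratins were again past the threshold, and 23.7% of genes rose. The median log2-fold-change over all genes was -0.002 there and -0.17 on the deposited scales. On the deposited scales the log2-fold-change was 3.47 for Krt7, 3.09 for Krt18, 2.45 for Krt8 and 0.71 for Krt19. The order of the members therefore turned on the control. Krt7 came after Krt18 and Krt8 against WT and was highest within the line, since its level in WT was above that of the ZHBTc4 controls. Krt18 was close to its value against WT, and Krt19 had the smallest value against either control.

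**Figure D2:**
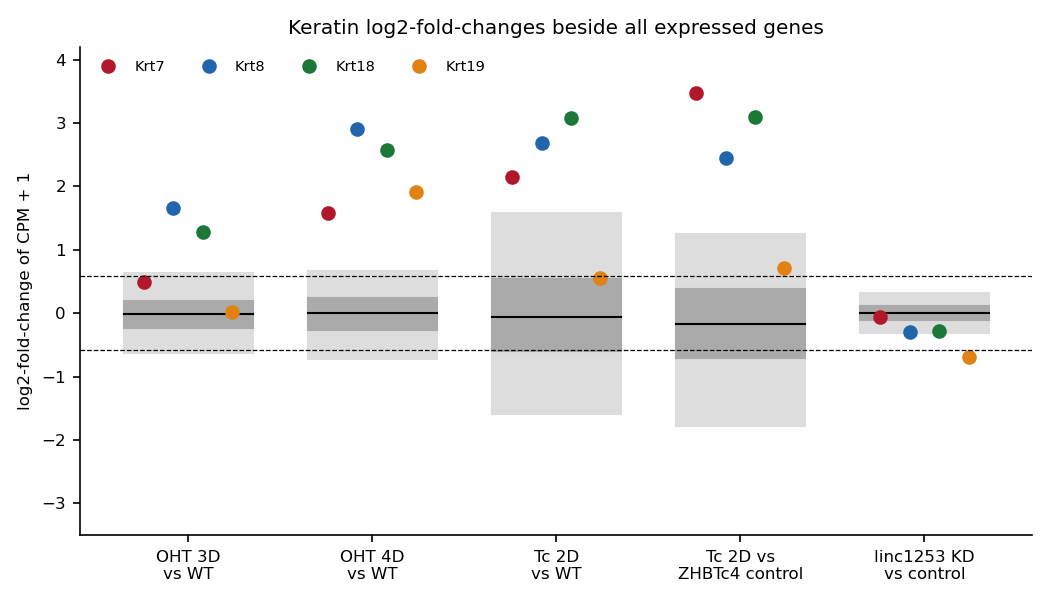
Log2-fold-change of CPM plus 1 (y axis) of the 4 keratins (coloured points) in 5 comparisons (x axis), with the 5th to 95th percentile of all expressed genes in light grey, the 25th to 75th in dark grey, their median as a black line and the threshold of 0.58 as dashed lines. Krt8 and Krt18 lie above the light grey range in the 4 comparisons with a depleted library, and Krt19 lies above it at OHT 4D only.

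After linc1253 knockdown, the keratins were compared with shRNA controls by limma over 13407 genes, 2 libraries against 2. No keratin passed an adjusted p of 0.05, and 0% of genes passed it in either direction, although 496 genes were higher and 503 lower at an unadjusted p under 0.05 (3.7% and 3.75%). By edgeR (quasi-likelihood) 0 genes were called, and DESeq2 called 23 higher and 27 lower, none of them a keratin. With replicate number as a block, a pairing that is not established, limma called 933 genes higher and 1027 lower, with 3 keratins among the lower. Krt19 had the largest difference on the log2 scale, with 6.29 ± 0.287 CPM (SD, n = 2) in the controls and 3.56 ± 0.917 CPM (SD, n = 2) in the knockdown libraries. It differed by -0.69 in log2 of CPM plus 1, with an SE of 0.181 (limma, two-sided, unadjusted p = 0.00801, Benjamini-Hochberg adjusted p = 0.562). For Krt8 the log2-fold-change was -0.30 (SE 0.121, limma unadjusted p = 0.0458, adjusted p = 0.652), and for Krt18 it was -0.28 (SE 0.132, adjusted p = 0.705). Krt7 was at -0.05 (limma adjusted p = 0.960). The labels do not say that the 2 libraries of a group came from separate cultures, so these p-values measure the spread between libraries, which may be technical.

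Levels were compared between the keratins per kilobase of exon, as CPM per kb. Krt8 and Krt18 made up 83.5% of the summed level of the 4 members in WT, 92.9% in OHT 3D, 89.8% in OHT 4D and 94.9% in Tc 2D. Their own ratio, Krt8 over Krt18, was 0.870 in WT, 1.14 in OHT 3D, 1.09 in OHT 4D and 0.659 in Tc 2D, and 1.00 to 1.06 in the 4 shRNA libraries. Summed by type, type II over type I was lowest in Tc 2D (0.661) and WT (0.718), 1.05 in OHT 3D and 0.936 in OHT 4D, and 0.833 to 0.930 in the shRNA libraries. The sum of the 4 members was 28.3 CPM per kb in WT, 183 in OHT 4D and 196 in Tc 2D.

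The share of each member within its type also differed between libraries. Krt19 gave 23.3% of the type I level in WT, 11% in OHT 3D, 16.8% in OHT 4D and 4.99% in Tc 2D, and 20.7% to 21.8% in the shRNA controls. It gave 14.1% and 17.2% after linc1253 knockdown. Krt7 gave 7.07% of the type II level in WT and 1.67% to 5.37% in the other libraries. These shares depend on the length used, and per kb of the longest coding transcript, an alternative chosen after seeing the data, Krt7 gave 11.6% in WT and 2.85% to 8.90% elsewhere. The level of Krt8 is uncertain because a copy 97.9% identical over 1734 bases lies at chr7:24142113-24143830, within the annotated extent of Nlrp4e, and 78.1% of the 100-base windows of the Krt8 transcript match sequence outside the gene with at most 2 mismatches. The study's methods let a read align to several locations, but how reads that match both were counted is not given in the sources used here. Nlrp4e itself had at most 0.773 CPM. Krt18, which has copies 90.5% and 86.5% identical on chromosomes 13 and 1, had such matches in 0.231% of windows, and Krt7 and Krt19 in 0.0751% and 0%.

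**Figure D3:**
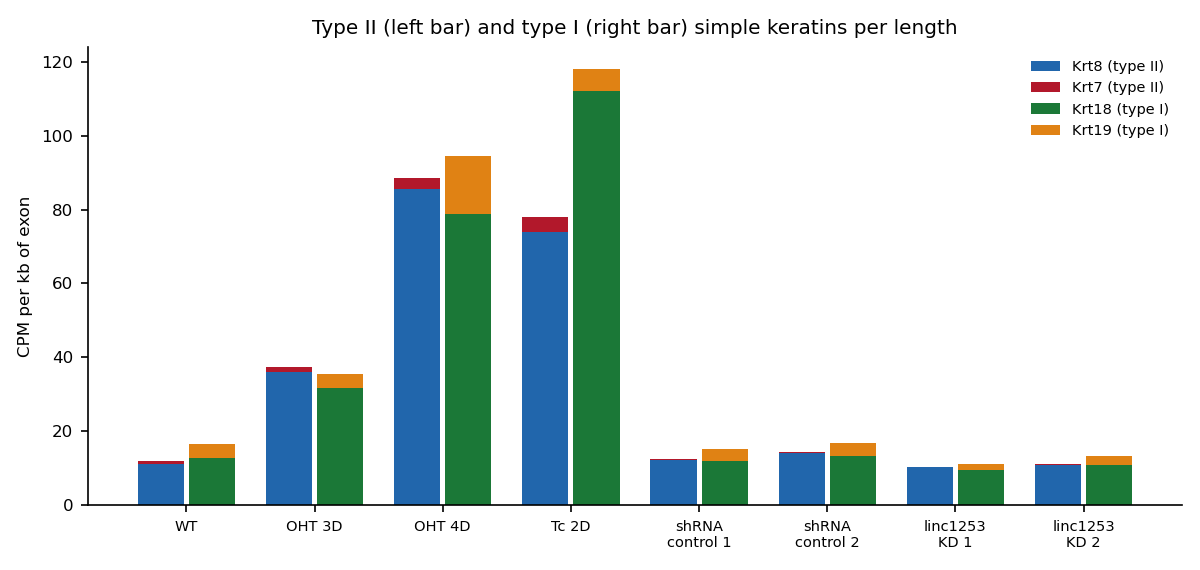
Level per length in CPM per kb of exon (y axis, from 0) of the type II keratins Krt8 and Krt7 (left stacked bar) and the type I keratins Krt18 and Krt19 (right stacked bar) in each library (x axis); KD is knockdown. The type II over type I ratio was 0.661 in Tc 2D and 0.718 in WT, and 0.833 to 1.05 in the other libraries.

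Of the other keratin genes, 47 were measured, and 6 of them were above 1 CPM in WT, an OHT library or Tc 2D. Krt17, a type I keratin of stratified epithelia and skin appendages, had 26.5 CPM in WT, 26.1 in OHT 3D, 34.6 in OHT 4D and 0.176 in Tc 2D, and 5.95 to 12.8 CPM in the shRNA libraries. Krt42, a type I keratin chosen after its values were seen, had 40.2 CPM in WT, 41.8 in OHT 3D, 90.2 in OHT 4D and 1.27 in Tc 2D, and 21.2 to 28.2 CPM in the shRNA libraries. At Tc 2D these 2 genes had log2-fold-changes of -4.55 and -4.18 against WT and -2.91 and -3.31 against the shRNA controls, while Krt8 and Krt18 rose. The 4 further keratins above 1 CPM, Krt9, Krt10, Krt16 and Krt20, stayed at 3.45 CPM or lower in all 8 libraries. Among 12 other type II keratins, 0 were above 1 CPM in WT, an OHT library or Tc 2D, so that Krt8 and Krt7 were the only type II keratins above that level there.

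**Figure D4:**
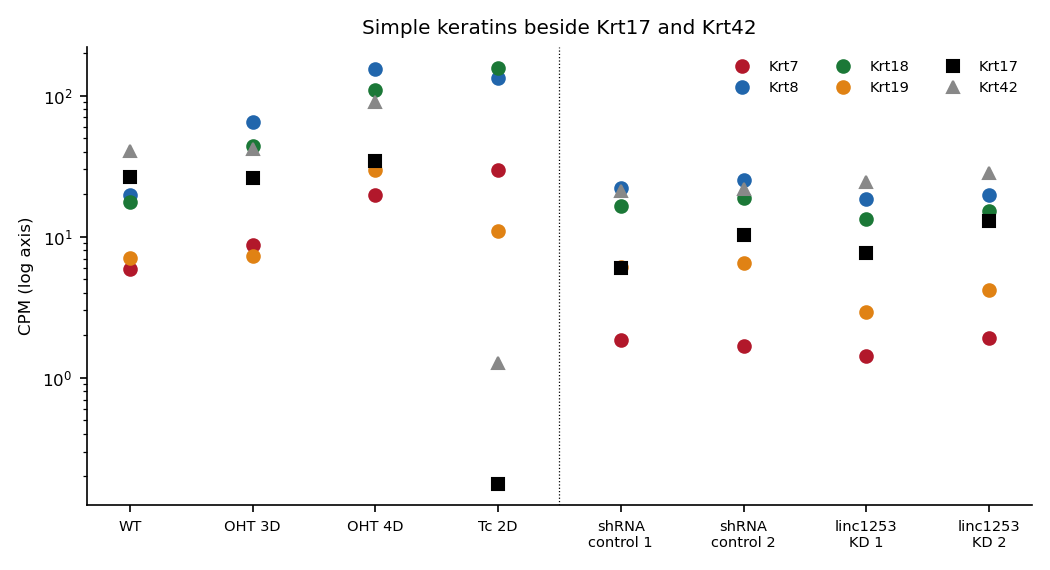
CPM on a log axis (y axis) of the 4 simple keratins (circles), Krt17 (squares) and Krt42 (triangles) in each of the 8 mRNA libraries (x axis); the dotted line separates the 2 tables and KD is knockdown. At Tc 2D, Krt17 and Krt42 are at 0.176 and 1.27 CPM, below all simple keratins.

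Genes whose products work with keratin filaments were described next. Of 12 expressed genes for desmosomes and keratin linkers, 3 rose and 2 fell at OHT 4D, where 6.48% of all genes rose and 8.89% fell, with a median log2-fold-change of -0.02 beside -0.00 over all genes. Perp (log2-fold-change 0.91), Dsc2 (0.67) and Dsp (0.62) rose, and Dst (-1.15) and Pkp2 (-0.77) fell. At Tc 2D 5 rose and 3 fell, where 23.9% of all genes rose and 25.8% fell, with a median of -0.00 beside -0.06. Against the shRNA controls 5 rose and 2 fell, beside 17.9% and 30.1% of all genes, with a median of 0.34 beside -0.17. Dsp, which encodes desmoplakin and ties keratin filaments to desmosomes, had 15.8 CPM in WT and 111 in Tc 2D. Dsc2, a desmosomal cadherin, had 3.35 CPM in WT and 44.8 in Tc 2D, and Plec, the linker plectin, had 75.9 and 262 CPM. Jup and Pkp3, which encode plaque proteins, and Perp fell, with log2-fold-changes of -1.38, -1.59 and -1.22. Against the shRNA controls of the same line these were -1.10 for Jup, -0.84 for Pkp3 and 0.17 for Perp, so that the call of Perp held against WT only, while Dsp (1.63), Dsc2 (3.01) and Plec (1.46) were past the threshold against both controls.

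Of 16 epithelial junction genes, 0 rose and 3 fell (Tjp1, Tjp3 and Ocln) at OHT 4D, where 6.48% of all genes rose and 8.89% fell, and at Tc 2D 2 rose (Itga6 and Tjp1) and 7 fell, with Epcam at 272 CPM in WT and 43.1 in Tc 2D. Against the shRNA controls the same list gave 7 up and 3 down at Tc 2D, so its direction turned on the control. Over all genes at Tc 2D, 23.9% rose and 25.8% fell against WT, and 17.9% rose and 30.1% fell against the shRNA controls. Among 13 other intermediate filament genes, 2 rose at OHT 4D and 1 fell, where 6.48% of all genes rose and 8.89% fell. At Tc 2D 5 rose and 4 fell against WT (23.9% and 25.8% of all genes), and 3 and 4 against the shRNA controls (17.9% and 30.1%). Vim, the filament protein of mesenchymal cells, had 34.1 CPM in WT, 109 in OHT 3D, 134 in OHT 4D and 121 in Tc 2D, but 163 to 217 CPM in the shRNA libraries. Of 9 AP-1 and ETS factors, the families known to act on the Krt18 gene, 3 rose at OHT 4D (Ets1, Fosl2 and Junb), and at Tc 2D 5 rose and 3 fell, where 23.9% of all genes rose and 25.8% fell. Against the shRNA controls 4 were up and 1 down, where 17.9% of all genes rose and 30.1% fell. Elf1 and Jund were called lower against WT only.

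Markers of other cell types moved with the keratins in some libraries. Of 18 expressed fibroblast markers, 16 rose at OHT 3D and 17 at OHT 4D, and 2 rose and 8 fell at Tc 2D (1 and 8 against the shRNA controls). Over all genes, 6.01% rose at OHT 3D and 6.48% at OHT 4D, and 23.9% rose and 25.8% fell at Tc 2D (17.9% and 30.1% against the shRNA controls). The summed CPM of this 20-gene list was 1068 in WT, 1437 in OHT 3D, 1571 in OHT 4D and 785 in Tc 2D, and 997 to 1225 in the shRNA libraries. Fn1 and Sparc, which other cells also express, made up 93.8% of the WT sum, and the 18 other markers summed to 66.3 CPM in WT, 522 in OHT 3D, 614 in OHT 4D and 60.4 in Tc 2D, and to 98.6 to 174 in the shRNA libraries. Acta2 (smooth muscle actin) had 5.90 CPM in WT, 94.6 in OHT 3D, 112 in OHT 4D and 0 in Tc 2D, and Postn, Lum, Dcn and S100a4 were also at 0 in Tc 2D. From OHT 3D to OHT 4D, 2 of the 18 fibroblast markers rose, where 5.47% of all genes rose. Their median log2-fold-change was 0.25, beside 0.03 over all genes, while the 4 keratins had a median of 1.27. The part of these markers in the keratin values at OHT was not tested. Over the shRNA libraries Acta2 ranged from 0.180 to 17.7 CPM, with the highest value in linc1253 knockdown replicate 2, and its part in the knockdown values was not tested.

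Trophectoderm factors, which include Cdx2 and Gata3, gave 9 rises and 1 fall among 11 expressed genes at Tc 2D, with a median log2-fold-change of 2.41 beside -0.06 over all genes, of which 23.9% rose and 25.8% fell. Against the shRNA controls 8 were up and 0 down, where 17.9% of all genes rose and 30.1% fell. The median was 2.32, beside -0.17 over all genes, and Tfap2c, the fall against WT (-1.16), was called higher (0.73). Hand1 had 0.268 CPM in WT, 5.34 in OHT 4D and 61.8 in Tc 2D, beside 5.35 and 3.23 in the shRNA controls, so that its log2-fold-change in Tc 2D was 5.63 against WT and 3.60 within the line. Cdx2 had 0.0894 CPM in WT, 1.01 in OHT 4D and 9.23 in Tc 2D, beside 0.415 and 0.301 in the shRNA controls. At OHT 4D 5 of the 11 rose and Tfap2c fell, where 6.48% of all genes rose and 8.89% fell. The summed CPM of the 12 factors was 244 in WT, 164 in OHT 3D, 185 in OHT 4D and 340 in Tc 2D, and 98.4 to 132 in the shRNA libraries. Tfap2c, an AP-2 factor that ES cells also express, held 192 CPM of the WT sum, and the 11 other factors summed to 52.4 CPM in WT, 50.1 in OHT 3D, 57.1 in OHT 4D and 254 in Tc 2D. Elf5, the factor at 0 in WT, had at most 0.646 CPM in any library.

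Primitive endoderm markers gave 10 rises and 0 falls among 13 expressed genes at OHT 4D, where 6.48% of all genes rose. At Tc 2D they gave 7 rises and 0 falls, where 23.9% of all genes rose. Against the shRNA controls these were 7 and 1, where 17.9% of all genes rose and 30.1% fell. Gata6 had 0.894 CPM in WT, 7.27 in OHT 4D and 6.41 in Tc 2D, and the collagen genes Col4a1 and Col4a2, which other cells also use, had 33.3 and 17.9 CPM in WT and 129 and 81.9 in OHT 4D. Summed over the list of 16, CPM was 264 in WT, 382 in OHT 3D, 456 in OHT 4D and 672 in Tc 2D, and 295 to 409 in the shRNA libraries, and Afp was at 0 in WT, both OHT libraries and Tc 2D. Lama1, Lamb1, Col4a1 and Col4a2 held most of these sums. They had 46.4, 151, 33.3 and 17.9 CPM in WT and 70.3, 245, 206 and 115 in Tc 2D, so the sums say little of the other markers. For 6 expressed surface epithelium markers, 3 rose and 1 fell at OHT 4D (median log2-fold-change 0.35), where 6.48% of all genes rose and 8.89% fell, and 2 rose and 4 fell at Tc 2D (median -0.97), where 23.9% rose and 25.8% fell. Against the shRNA controls 2 were up and 2 down at Tc 2D, where 17.9% of all genes rose and 30.1% fell. The median was 0.18, beside -0.17 over all genes, so that its sign turned on the control. In this list the basal keratins Krt5 and Krt14 were at 0.849 CPM or lower in all libraries. The part of these lists in the keratin values was not tested.

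**Figure D5:**
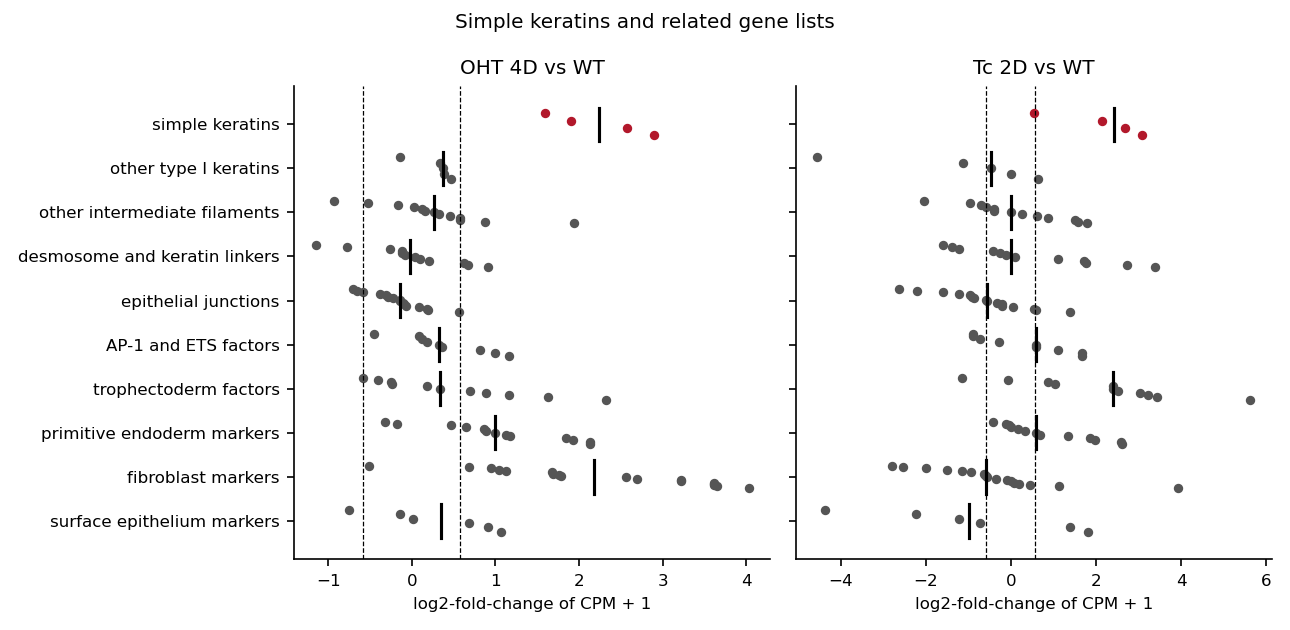
Log2-fold-change of CPM plus 1 (x axis) of each expressed gene (points) of 10 gene lists (rows) at OHT 4D (left) and Tc 2D (right) against WT; black bars are medians and dashed lines the threshold of 0.58. The simple keratins, in red, have medians of 2.24 and 2.42, the fibroblast list has 2.17 and -0.57, and the trophectoderm list has 0.34 and 2.41.

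Genes with the most alike pattern were searched over 10428 genes with a mean of at least 5 CPM, by the root-mean-square difference from a keratin over 4 log2-fold-changes (OHT 3D, OHT 4D, Tc 2D and linc1253 knockdown), which came from 8 libraries and of which 3 share WT. For Krt8 the nearest genes were Anxa3 (difference 0.295), Krt18 (0.323) and Col4a2 (0.550). Anxa3, which encodes an annexin, had 2.37 CPM in WT, 9.73 in OHT 3D, 19.8 in OHT 4D and 15.5 in Tc 2D. For Krt18 they were Krt8 (0.323), Anxa3 (0.470) and Myof (0.484). The likeness of Myof held with WT as the control, since it had 3.04 CPM in WT and 41.9 in Tc 2D but 136 and 112 in the shRNA controls. Krt8 and Krt18 were thus near neighbours in both directions of the search.

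Krt7 and Krt19 had other neighbours. Nearest to Krt7 were Ier5l (0.301), Parva (0.307) and F3 (0.310), and F3, which encodes tissue factor, had 8.05 CPM in WT, 19.3 in OHT 4D and 28.4 in Tc 2D. All likenesses in this search rest on WT as the control for Tc 2D. In the shRNA controls Ier5l had 15.4 and 8.77 CPM, Parva 10.1 and 9.63 and F3 6.09 and 6.02. Krt7 had 1.85 and 1.68 CPM there. For Krt19 they were Igsf21 (0.511), Gprc5a (0.531) and S100a13 (0.540). From Krt19, Krt8 and Krt18 stood at places 9144 and 9223 of the 10428. In the other direction, Krt19 stood at place 161 from Krt8 and 267 from Krt18, so that the place depends on the direction.

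ChIP-sequencing of Pontin and of a control with a GFP antibody, 1 library each in untreated ZHBTc4 cells, was counted in a window around the annotated 5′ end that began 2.5 kb before it and ended 500 b after it and scaled by library size. Over 21178 promoters the median log2 ratio of Pontin over GFP was 0.34, and 14.8% were above 1. Of the 4 keratins 1 was above 1. Krt7 had 63 Pontin reads and 11 GFP reads, a log2 ratio of 1.27 (95% exact interval 0.34 to 2.35). Krt18 had 85 and 18 reads, a log2 ratio of 0.99 (interval 0.25 to 1.82). Krt19 had 58 and 21 reads (log2 ratio 0.22, interval -0.52 to 1.02) and Krt8 had 80 and 32 reads (log2 ratio 0.08, interval -0.53 to 0.72). With 1 read per position and strand, the log2 ratio was 1.02 for Krt7, 0.44 for Krt8, 0.43 for Krt18 and 0.16 for Krt19.

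All 4 intervals included the median of all promoters, so that a difference of a keratin promoter from the typical one was not detectable at this depth. Counted from the start of the longest coding transcript, which lies within the printed Krt7 stretch, Krt7 had 68 and 16 reads and a log2 ratio of 0.84, below 1.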

How the data were processed

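Per the labels and the study's methods, poly(A) RNA reads were aligned to NCBIM37 with TopHat and counted on genes with HTSeq, and the authors deposited CPM values after TMM normalization in edgeR, in 2 tables of 4 libraries each that were normalized separately. Values came in steps of 1 read in each library (whole for 100% of values, within 0.01 read), and the reads recovered from them gave the depth and the counting intervals. No molecular identifiers were used and reads may repeat a molecule, so intervals cover counting error only. The deposited ChIP-sequencing files give reads with a mapping score, at least 5 for GFP (17185883 reads) and 6 for Pontin (40729076 reads).

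The members and gene lists were chosen with earlier results of these data known. Genes above 1 CPM in at least 1 library of a table were expressed (13449 and 13407), and 1 was added before log2. The linc1253 knockdown was fitted with limma 3.58.1 with trend. The recovered reads were also fitted with edgeR 4.0.16 and with DESeq2 1.42.0. Scripts were tested on simulated data. Of each gene list, up to 3 rises and 3 falls past the threshold at OHT 4D and Tc 2D could be named, besides the members, Ruvbl1, Pou5f1 and the 3 nearest genes per member. Outside this rule, and after their values were seen, the text names Krt42, the low keratins Krt5, Krt14, Krt16 and Krt20, the markers at 0 in a library (Postn, Lum, Dcn, S100a4, Elf5 and Afp) and genes that hold much of a sum (Fn1, Sparc, Lama1 and Lamb1). Of 22713 identifiers, 22337 had a symbol. Copies were searched with BLAST 2.17.0 on NCBIM37, and the RefSeq promoter table held 3 of the 4 members. The alternatives were pseudocounts of 0.5 and 3, median-ratio scaling, other filters and thresholds, the other control for Tc 2D, left-out libraries, a replicate block, and for ChIP 1 read per position and strand, other windows and another scaling. Python 3.11.15, numpy 2.4.6, pandas 2.3.3, scipy 1.17.1, matplotlib 3.10.9 and R 4.3.3 were used.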

Additional observations from a re-analysis of the deposited data

How the results depend on the processing

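With pseudocounts of 0.5 and 3, median-ratio scaling, no filter, a filter at 5 CPM and a log2-fold-change threshold of 1, the keratins that rose numbered 2 at OHT 3D and 4 at OHT 4D, where 1.9% to 7.55% and 2.38% to 8.07% of genes rose. At Tc 2D the count was 3 or 4, where 12.8% to 25.3% rose, and Krt19 was the member that crossed the threshold. The ZHBTc4 controls gave Krt7 3.47 on the deposited scales and 3.63 on 1 median-ratio scale, beside 2.15 against WT.

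The linc1253 knockdown called 0 keratins higher or lower under each setting, left-out libraries included, except with replicate number as a block, which called 3 lower, Krt19 (adjusted p = 0.00126), Krt8 (0.0150) and Krt18 (0.0348), and 933 genes higher and 1027 lower. Deviations of same-numbered libraries correlated at 0.673 over 13407 genes, but with 2 pairs that share only a number the block is not established. DESeq2 called 23 genes higher and 27 lower. Krt7 had no adjusted p by DESeq2 and was not tested with the filter at 5 CPM, so it could not be called under these settings. Leaving out 1 library gave 0 to 16 genes higher, the most without linc1253 knockdown replicate 1, and 0 to 3 lower. Over the 4 such fits the Krt7 log2-fold-change ranged from -0.19 to 0.086, the latter without that library, beside -0.05 with all. A lone library was assumed to vary like the other group.

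The count of keratin promoters above a Pontin log2 ratio of 1 was 0 with median ratio scaling (6.28% of all promoters), 0 with 1 kb either side of the start (26.4%), and 0 from the start of the longest coding transcript (14.8%), an alternative chosen after seeing the data. The cause was not tested. With 11 to 32 GFP reads per promoter, depth limits these ratios. With 1 library per condition outside the shRNA groups, no fold of Pontin or Oct4 depletion has a replicate check in these mRNA libraries. For Krt18, the paper reports a rise after either depletion by quantitative RT-PCR in repeated independent experiments.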
